A study of Mus musculus with 9 samples.

Results

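Of the 1832 regions of open chromatin that the authors listed in any of their 3 comparisons, 156 overlapped an exon or an untranslated region (UTR) of a transcript and did not overlap a promoter. They were found from the annotation carried by the authors' lists: a region was kept when it had an exon, 5' UTR or 3' UTR entry and no promoter entry, a promoter being the 1000 bases upstream of a transcript start. The measurement was ATAC-seq, which uses a transposase to cut and label accessible DNA, made by the Omni-ATAC procedure on C2C12 myotubes, multinucleate muscle cells differentiated in horse serum from a mouse myoblast line. Of the 9 libraries, 3 came from untreated myotubes, 3 from myotubes given 10 mM ammonium acetate for 3 h and 3 from myotubes given the same dose for 24 h, and the labels call the libraries of a group biological replicates. The series was made to examine how such myotubes respond to hyperammonemia. No time is given for the untreated cultures, which are the control at both times, and no group received acetate without ammonium, so ammonium, acetate and time in culture cannot be told apart. All comparisons come from 1 cell line.

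Most open chromatin lies at promoters and at distal enhancers, many of them in introns, but exons can also be accessible. A coding exon can hold an enhancer of its own or a neighbouring gene or an internal start site. A 3' UTR lies at the end of a gene, and a first exon lies directly downstream of a start site and so, by the definition used here, can fall outside the promoter. Accessibility at such a site is not a measure of the RNA or protein of the gene it overlaps, and a region is named here by that gene only to say where it is.

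The authors' lists hold a log2 fold change (called log2 change from here on), a p-value and a mean log2 CPM (depth-scaled counts, CPM, averaged over the libraries of the fit) for each region, and no value per library. The depth of each library and the values of single libraries are therefore unknown here, and replicate error is known only as the authors' edgeR fit used it. From the adjusted p-values of 24 h against untreated, 146047 regions were tested, and the same number is taken for the other comparisons. Of these, 588 (0.403%) were listed for 3 h against untreated, 150 (0.103%) for 24 h against untreated and 1256 (0.86%) for 24 h against 3 h. The lists were made with different thresholds: a raw p under 0.005 with a 1.5-fold or larger difference for the first and the third, and an adjusted p under 0.05 for the second. Their lengths cannot be set against each other for this reason. Because a region is known only if it passed a threshold, the accessible exons that did not are outside this account. The identity of the cells could not be checked for the same reason: of 13 skeletal muscle marker genes 2 had a listed region (Actc1 and Tnnt1), of 7 fibroblast markers 3 did (Fn1, Postn and Twist2), of 4 myoblast markers 2 did (Dll1 and Pax7), and of 5 adipocyte or smooth muscle markers 0 did.

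Few of these regions coincide with a microRNA or a start-site window in RefSeq (GRCm38.p6, the assembly of mm10), and those that do are shown for what the exon or UTR label covers. A 339-bp region at chrX:134757640-134757978 holds 92 of the 101 bases of the Mir7093 hairpin. The region has a 5' UTR entry at Armcx3, and 18.3% of its length is UTR. It is the 1 region of the 156 that overlaps a microRNA hairpin. The mature RNAs of that hairpin, with the seed (bases 2 to 8, the bases that pair with target messages) in capitals, are as follows.
mmu-miR-7093-5p: cAGGAUGAcagaaggaaaaccu
mmu-miR-7093-3p: uUUCCAUCugucauccugcag
The seeds differ, and the region covers 18 of the 22 bases of the 5p RNA and all 21 of the 3p RNA. In the authors' deposited table the Armcx3 region was 2.19-fold higher at 3 h (log2 change 1.13, approximate SE 0.30), and it did not pass the adjusted threshold (adjusted edgeR p = 0.939).

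RefSeq start-site windows, which run from 250 bases before to 50 after a start site and can number several per gene, overlapped 2 of the 156 regions. The Foxa1 region holds 24 of the 300 bases of its window, and its midpoint lies 2481 bp from the 5' end of the RefSeq gene. A 955-bp region at Dgka, the gene of diacylglycerol kinase alpha (chr10:128736960-128737914), holds all 300 bases of 1 of the 4 windows of that gene. Its start site is internal, with the midpoint of the region 7647 bp from the 5' end of the RefSeq gene, or 30.6% of the way along it. The last 30 bases before this internal start, chr10:128737613-128737642 on the minus strand, are printed to show such a site.
Dgka, before the start: gctagttcggagtCACGTGtccgaagcgct
The capitals mark CACGTG, the E-box letters, which read the same on both strands. They were picked after reading the sequence and are present in 2349 of 32851 RefSeq windows of the same length (7.15%). The match describes the letters only. In the authors' annotation these bases lie in an intron, and the region has a 5' UTR entry and no promoter entry. It was 1.72-fold lower at 24 h than at 3 h in the authors' deposited table (log2 change -0.79, approximate SE 0.23), without passing the adjusted threshold (adjusted edgeR p = 0.466). Dgka is named for its sequence, chosen after its values were seen.

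The 156 regions fall into 6 groups by the exon or UTR they touch. An exon of a protein-coding gene with no UTR was touched by 69, a 3' UTR by 44, a 5' UTR by 10 and both kinds of UTR by 1, at Med25. Another 9 lay in exons of named noncoding genes and 23 in exons with no gene symbol. The noncoding genes were Neat1, Snhg16 with Snord1a, Platr26, Gm10804, Morrbid, A930024E05Rik, 2310001H17Rik, Gm33104 and Gm6961. In all 130 genes were named, and all 130 matched RefSeq. The label does not mean that a region is mostly exon: the median share of a region's length in exon or UTR sequence was 54.0%, 51 regions lay wholly in it, and 17 had under 10% of their length in it. An intron was also touched by 122 of the 156. A region is called a UTR region here if any part of it touches a UTR of any transcript. Regions were as wide as the lists as a whole, with a median of 606.5 bp (range 201 to 1589 bp) against 605 bp.

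Position along the gene was towards its 3' end. Of the 113 regions inside the RefSeq span of their protein-coding gene, 54 lay in the 3'-most 20% of it and 6 in the 5'-most 20%. The median position was 77.1% of the way from the 5' to the 3' end, and 1 region had its midpoint within 1 kb of the 5' end of the gene's whole span, which internal start sites do not enter. This follows in part from the rule, which removes promoters and keeps 3' UTRs. By CpG class, 131 of the 156 (84.0%) had no entry for a CpG island, shore or shelf, a share like that of all listed regions (1529 of 1832, 83.5%), and 4 were on an island, 17 on a shore and 10 on a shelf.

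**Figure D1:**
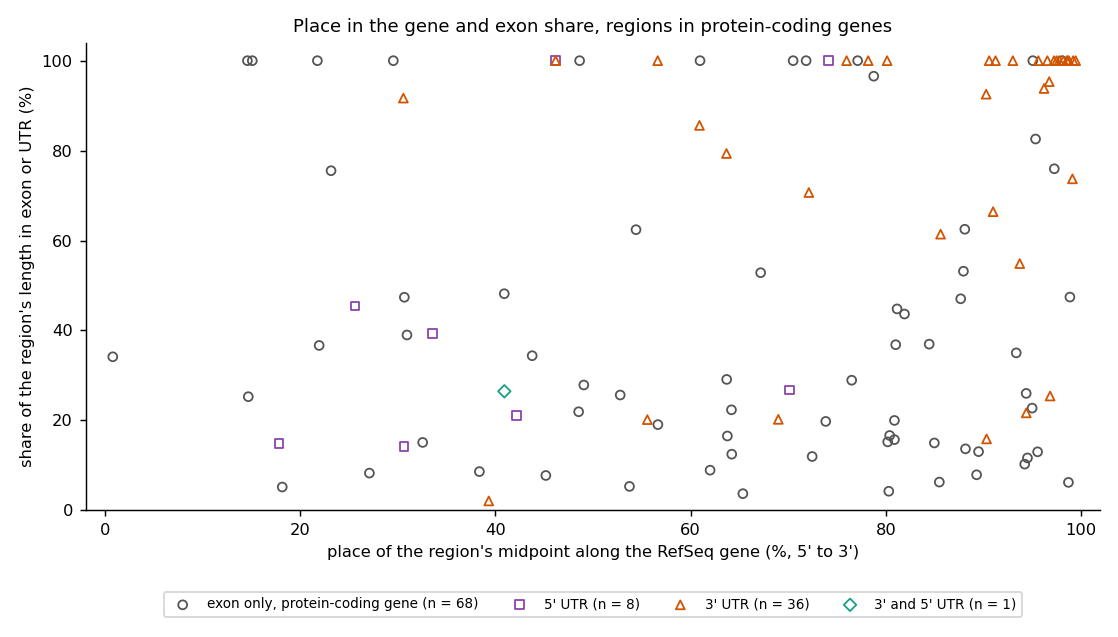
Place of the 113 exon and UTR regions that lie inside the RefSeq span of their protein-coding gene, as percent of the way from the 5' to the 3' end of the gene, against the percent of the region's length in exon or UTR, with symbols for the kind of exon or UTR. The median is 77.1%, with 54 regions in the 3'-most 20% of the gene and 6 in the 5'-most 20%.

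After 24 h, accessibility changed at 12 of these regions beyond the replicate spread in the authors' edgeR test: 8 rose and 4 fell. Those that rose include 2 noncoding RNA genes, Neat1 and Snhg16, and the 3' UTRs of Plekhf1 and Rps20. Exonic regions of Fank1 and Plekha2, the 3' UTR of Il17rd and a 5' UTR of Prkar2a fell. All 150 regions of this list, and so all 12, had to pass an adjusted p below 0.05 to be listed, which makes the count a description of the list. The share that rose was 66.7%, where 44.7% of all 150 listed regions were higher. The 95% exact binomial interval of the 66.7%, for counting error only, ran from 34.9% to 90.1%. By annotation class the share was 66.7% of 12 promoter regions and 50% of 14 regions 1 to 5 kb upstream. It was 37.2% of 43 intronic and 40.6% of 69 intergenic regions. Promoters thus had the same share as the exon and UTR regions, and the order was not tested. The median absolute log2 change was 1.08 against 1.10 over the whole list.

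Neat1 and Snhg16 are noncoding. Neat1 is the architectural RNA of paraspeckles, nuclear bodies that form around it, and its exonic region (chr19:5835554-5835940) rose 2.28-fold at 24 h in the authors' deposited table (log2 change 1.19, approximate 95% interval 0.75 to 1.64, adjusted edgeR p = 0.0312). At 3 h the same region had a 1.67-fold higher value in the authors' deposited table, which did not pass (log2 change 0.74, adjusted edgeR p = 0.996). It had the highest mean accessibility of the 12, at 3.91 log2 CPM in the authors' deposited table. Snhg16 hosts small nucleolar RNAs, and its region overlaps Snord1a, one of them (chr11:116674625-116674905). This region rose 2.43-fold at 24 h in the authors' deposited table (log2 change 1.28, approximate 95% interval 0.77 to 1.79, adjusted edgeR p = 0.0421). Its 3 h value in the authors' deposited table was a log2 change of 0.88 (adjusted edgeR p = 0.961).

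Among the 3' UTR regions, the one at Plekhf1, whose product is a phosphoinositide-binding protein of endosomes and lysosomes, rose 2.14-fold (chr7:38217285-38218120; log2 change 1.09, approximate SE 0.20, adjusted edgeR p = 0.0312 in the authors' deposited table). It lies past the 3' end of the RefSeq gene and takes its gene from the authors' annotation. The 3' UTR region of Rps20, a protein of the small ribosomal subunit, rose 2.11-fold (chr4:3832182-3832759; log2 change 1.07, approximate SE 0.19, adjusted edgeR p = 0.0332 in the authors' deposited table). The 3' UTR region of Il17rd, whose product restrains fibroblast growth factor signalling, went the other way and fell 1.92-fold (chr14:27105687-27106419; log2 change -0.94, approximate SE 0.18, adjusted edgeR p = 0.0421 in the authors' deposited table).

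In exons of protein-coding genes, Jade1 had the largest fold of the 12. Jade1 is a scaffold subunit of the HBO1 histone acetyltransferase complex, and its 201-bp exonic region (chr3:41613752-41613952) rose 6.23-fold in the authors' deposited table (log2 change 2.64, adjusted edgeR p = 0.0421). The mean accessibility there was the lowest of the 12, at -0.66 log2 CPM in the authors' deposited table, and the approximate 95% interval of 1.60 to 3.68 was the widest. Tnrc18 rose 1.93-fold (log2 change 0.95, adjusted edgeR p = 0.0436 in the authors' deposited table). An exon with no gene symbol at chr19:44316788-44317137 rose 2.14-fold (log2 change 1.10, adjusted edgeR p = 0.0241 in the authors' deposited table).

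Fank1, a gene best known from testis, had the smallest adjusted p of the 12: its region at chr7:133869924-133870757 fell 2.12-fold (log2 change -1.08, approximate SE 0.17, adjusted edgeR p = 0.0170 in the authors' deposited table). Only 7.91% of that region is exon. Plekha2 encodes an adaptor that binds phosphoinositides, and its region, 4.25% exon, fell 1.96-fold (log2 change -0.97, adjusted edgeR p = 0.0348 in the authors' deposited table). Prkar2a, the gene of a regulatory subunit of protein kinase A, had a 5' UTR region that fell 1.86-fold (log2 change -0.89, adjusted edgeR p = 0.0432 in the authors' deposited table). That region is upstream of the RefSeq start of Prkar2a and takes its gene from the authors' annotation. Of the 12, the regions at least 50% exon or UTR were 7, of which 6 rose, and the other 5 were 2 that rose and 3 that fell.

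**Figure D2:**
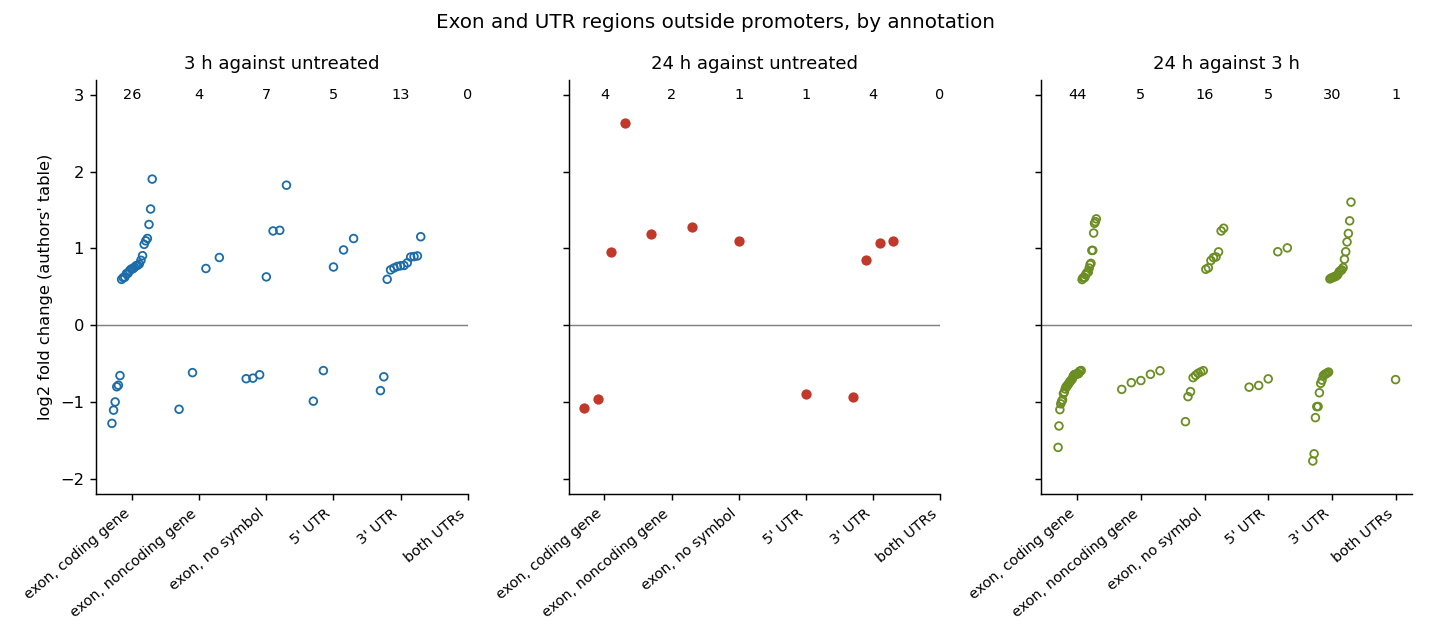
Authors' log2 change of each exon or UTR region, by comparison and by the exon or UTR it touches, with 1 point per listed region and the number of regions above each column. Filled points have an adjusted p below 0.05, which holds for all 12 regions of 24 h against untreated and for 0 of the regions of the other comparisons.

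After 3 h, 55 of the regions were listed, 40 with a higher and 15 with a lower value, and 0 of the 55 passed an adjusted p below 0.05 in the authors' edgeR fit (1 of the 146047 tested regions did, 0.000685%, and it is not among these). All 55 had an unadjusted p below 0.005, because the list required it. The share with a higher value was 72.7%, beside 55.6% over all 588 listed regions. By annotation class it was 79.8% of 99 promoter regions, 58.8% of 68 regions 1 to 5 kb upstream, 53.0% of 166 intronic and 40% of 200 intergenic regions. The exon and UTR regions thus stood between the promoters and the upstream regions in this share. The order was not tested, since every region was listed by its change in the same libraries.

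A higher value was listed at 11 of 13 3' UTR regions, at 20 of 26 exons of protein-coding genes and at 3 of 5 5' UTR regions. For noncoding genes it was 2 of 4, and for exons with no symbol 4 of 7. By CpG entry, 11 of 14 regions on an island, shore or shelf and 29 of 41 with none had a higher value, while over the whole list 113 of 129 regions with such an entry did (87.6%). Regions at least 50% exon or UTR had a higher value in 25 of 34 cases and the rest in 15 of 21.

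**Figure D3:**
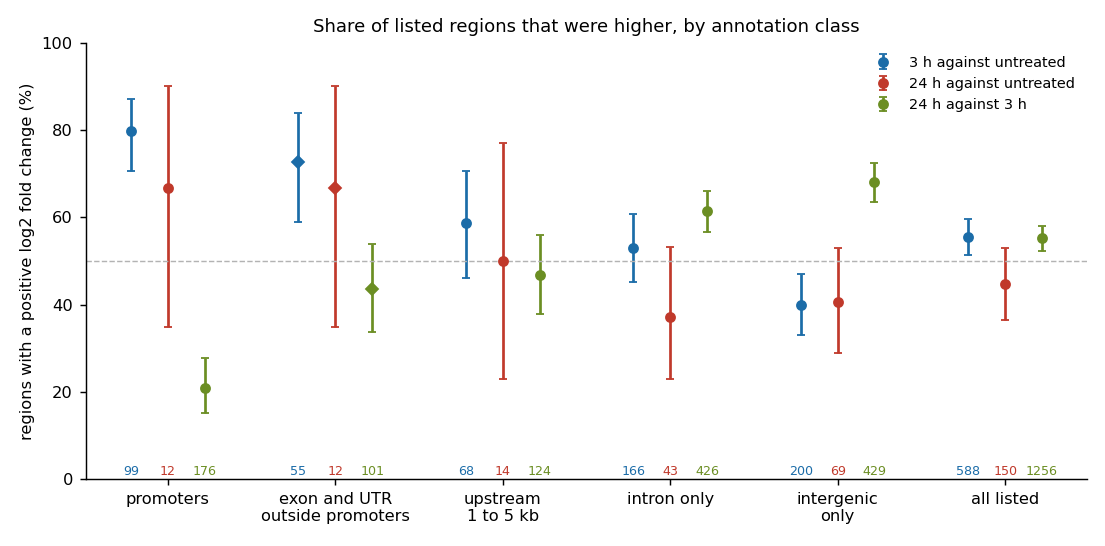
Percent of listed regions with a higher value in each comparison, for the exon and UTR regions and for the other annotation classes, with 95% exact binomial intervals that cover counting error only. For exon and UTR regions the share is 72.7% of 55 at 3 h, 66.7% of 12 at 24 h and 43.6% of 101 for 24 h against 3 h.

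Among 5' UTR regions at 3 h, the value was lower at Tgif1, a homeobox corepressor of TGF-beta signalling, and higher at Nutf2 and Foxa1. The Tgif1 region (chr17:70848878-70849571), wholly exonic, had the smallest p of the 55 in the authors' deposited table, with a 1.99-fold lower value (log2 change -0.99, approximate 95% interval -1.37 to -0.62, adjusted edgeR p = 0.338). Nutf2, which carries Ran into the nucleus, had a log2 change of 0.98 in the authors' deposited table (approximate SE 0.21, adjusted edgeR p = 0.425). Foxa1, a pioneer transcription factor gene, had 0.76 as its log2 change in the authors' deposited table (approximate SE 0.17, adjusted edgeR p = 0.678).

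The 3' UTR regions with the smallest p at 3 h were those of Adora1, Sh3bp2, Plekhf1 and Ldhd. Adora1 encodes the adenosine A1 receptor, and its region (chr1:134201993-134203248) had a log2 change of -0.85 in the authors' deposited table (adjusted edgeR p = 0.713). The authors' deposited table gives log2 changes of 0.90 at Sh3bp2, a signalling adaptor, 0.81 at Plekhf1 and 0.76 at Ldhd, the D-lactate dehydrogenase gene (adjusted edgeR p from 0.713 to 0.718). The Sh3bp2 region is 20.2% UTR. Arl16, a small GTPase gene, had 0.89 as its log2 change in the authors' deposited table. Of 34 immediate early and AP-1 genes 1 had an exon or UTR region in any list, Atf3, a stress-induced transcription factor. Over RefSeq, 118 of 21900 protein-coding genes did (0.539%), and nothing is read from 1 gene. The 3' UTR region of Atf3 was 2.22-fold higher at 3 h in the authors' deposited table (log2 change 1.15, approximate SE 0.34, adjusted edgeR p = 0.9999).

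Of the exons of protein-coding genes at 3 h, the smallest p belonged to Bcar1, the gene of the focal adhesion scaffold p130Cas (chr8:111720034-111720597). That region had a 1.87-fold higher value in the authors' deposited table (log2 change 0.91, approximate SE 0.18, adjusted edgeR p = 0.345). Fank1 was lower, with a log2 change of -0.80 in the authors' deposited table (adjusted edgeR p = 0.399), and Ppp1r9b, the gene of the actin-binding spinophilin, had 0.77 (adjusted edgeR p = 0.678). The largest positive log2 changes at 3 h in the authors' deposited table were 1.90 at Jade1, 1.82 at an exon with no symbol inside Eml5 and 1.51 at P2ry6, a nucleotide receptor. The largest negative ones, per the authors' deposited table, were -1.28 at Tll2, a tolloid-like metalloproteinase, -1.11 at a second Adora1 region and -1.10 at Gm33104. The regions with the most extreme values were thinly covered, and all but the Adora1 region had a mean log2 CPM below 1. Over the 9 regions below that level the median absolute log2 change was 1.28, against 0.769 over the others.

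**Figure D4:**
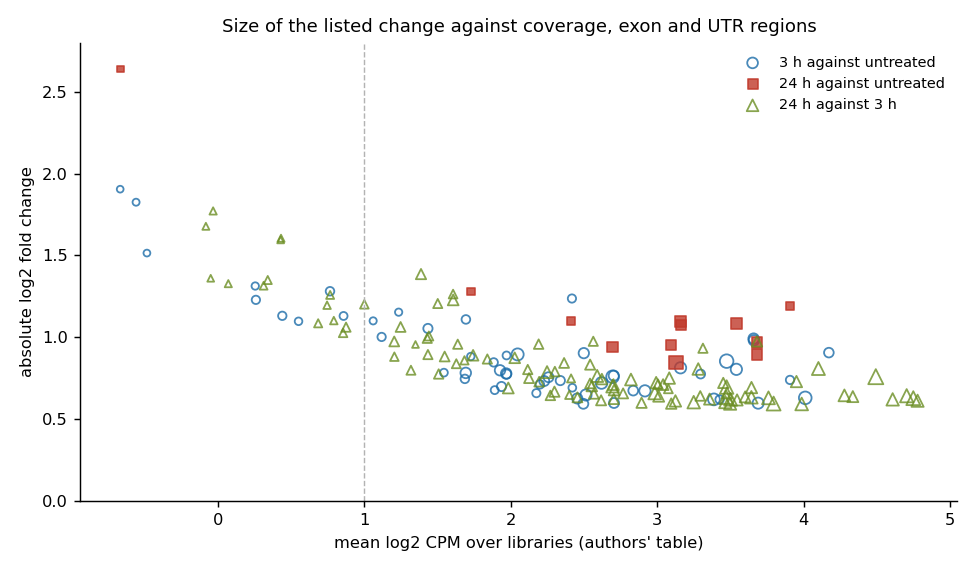
Absolute size of the authors' log2 change of each exon or UTR region against its mean log2 CPM over libraries, with larger symbols for wider regions, filled symbols for 24 h against untreated and a dashed line at a mean log2 CPM of 1. The most extreme values, such as 2.64 and 1.90 at Jade1 lie at low coverage, where the median approximate SE was larger (0.390 below the line and 0.205 above it at 3 h).

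Between 3 h and 24 h, 101 of the regions were listed, 44 with a higher value at 24 h and 57 with a lower one. None passed the adjusted threshold in the authors' edgeR fit: 0 of the 101 and 0 of all 146047 tested regions (0%) had an adjusted p below 0.05, while all 101 had an unadjusted p below 0.005, and the smallest adjusted p among the 101 was 0.222. The share with a higher value was 43.6%, beside 55.2% over all 1256 listed regions. It was 21.0% of 176 promoter, 46.8% of 124 upstream, 61.5% of 426 intronic and 68.1% of 429 intergenic regions. The direction of the split depends on the p limit: of the 30 regions with a raw p below 0.001, 18 (60%) had a higher value.

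The lower values at 24 h were spread over the groups. A higher value was listed at 17 of 30 3' UTR regions and 8 of 16 exons with no symbol, at 17 of 44 exons of protein-coding genes, at 2 of 5 5' UTR regions and at 0 of 5 exons of noncoding genes. The Med25 region, which touches both UTRs of a Mediator subunit gene, was lower, with a log2 change of -0.71 in the authors' deposited table (adjusted edgeR p = 0.464). Of 10 regions with a CpG island, shore or shelf 2 had a higher value, as did 25 of 181 such regions over the whole list (13.8%).

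Plekha2 and an exon with no symbol inside Siva1, an apoptosis gene, had the smallest p between the times. Their log2 changes, per the authors' deposited table, were -0.97 and -0.93, with an approximate SE of 0.18 each and an adjusted edgeR p of 0.222 for both. The Siva1 exon has no symbol and so falls outside the rule for named genes; it was chosen after its values were seen. Platr26, a long noncoding RNA gene, had -0.75 and the 3' UTR region of Egflam, an extracellular matrix gene, had -0.76 as log2 change in the authors' deposited table (adjusted edgeR p = 0.346 for both). The Egflam region is 7.36% UTR. Further lower regions in the authors' deposited table lay at Rasgef1b (-1.21), an exchange factor for Ras-like GTPases, at Esyt3 (-0.74), a tether of the endoplasmic reticulum to the plasma membrane, at Jak1 (-0.64), the cytokine receptor kinase, and at Galnt2 (-0.64), which starts O-glycan chains. All of these values are log2 changes.

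Higher at 24 h than at 3 h were Adam19, a membrane metalloproteinase gene, and a region assigned to the 3' UTR of Prl7d1, a prolactin family gene, which lies past the 3' end of the RefSeq gene. Their log2 changes, per the authors' deposited table, were 0.98 and 0.96 (approximate SE 0.20 and 0.21, adjusted edgeR p = 0.257 and 0.278). The region at Akap9, which anchors protein kinase A at the Golgi and the centrosome, had a 2.61-fold higher value in the authors' deposited table (log2 change 1.39, adjusted edgeR p = 0.346), with 6.22% of its length in exon. Others in the authors' deposited table were Peak1 (0.81), a pseudokinase of the cytoskeleton, Ttll11 (0.72), a tubulin polyglutamylase, Chmp4c (0.69), an ESCRT-III subunit, Retreg1 (0.68), a receptor for degradation of endoplasmic reticulum, and Prg4 (0.62), the gene of lubricin, all as log2 changes.

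Apart from Akap9, the most extreme values between the times were at regions with a mean log2 CPM below 1. They were 1.60 at Fign, a microtubule-severing protein gene, and 1.36 at Pds5a, a cohesin regulator, both in 3' UTRs, as log2 changes in the authors' deposited table. On the lower side the log2 changes, per the authors' deposited table, were -1.77 at Trp53inp1, a p53 target, and -1.68 at Nr2e1, an orphan nuclear receptor. The region named Dnase2a, at -1.59 in the authors' deposited table, lies outside the RefSeq span of that gene and inside Mast1, so its gene is uncertain. The median absolute log2 change was 1.32 over the 14 regions with a mean log2 CPM below 1 and 0.717 over the others. The 5' UTR regions of Srrm3, a splicing regulator, and Faf2, a factor of endoplasmic reticulum protein degradation, had -0.81 and 0.96 as log2 changes in the authors' deposited table (adjusted edgeR p = 0.421 and 0.441). Of the Srrm3 region 0.868% is UTR, and of the Faf2 region 14.9%.

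Across the comparisons 144 of the 156 regions were in a single list, 12 in 2 lists and 0 in all 3; of all listed regions 1673 of 1832 (91.3%) were in a single list, against 92.3% of these. The comparisons share libraries, so their values are set side by side without a test. The 5 regions listed at both 3 h and 24 h against untreated were Fank1, Jade1, Neat1, Plekhf1 and Snhg16, which are 9.09% of the 55 and 41.7% of the 12. Over all listed regions 30 were in both lists, 5.10% of the 3 h list and 20% of the 24 h list, and all 30 had equal signs. In the authors' deposited table the log2 changes at 3 h and at 24 h were -0.80 and -1.08 at Fank1, 1.90 and 2.64 at Jade1, and 0.81 and 1.09 at Plekhf1. At each of the 5 the value at 24 h was larger in size than at 3 h, and only the 24 h value passed the adjusted threshold. Passing at 24 h was required by that list (adjusted p below 0.05), while the 3 h list required a raw p under 0.005. The stricter limit also favours larger 24 h values in regions on both lists, so no growth with time is read from this. None of the 5 was listed for 24 h against 3 h.

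Plekha2, Tnrc18 and the chromosome 19 exon were in the lists of 24 h against untreated and 24 h against 3 h, 25% of the 12 and 2.97% of the 101, where all listed regions had 81 in common, 54.0% and 6.45% of those lists. A missing 3 h value can be derived as the difference of the listed log2 changes, which held to rounding in the 3 regions of the series present in every list. Derived so, the log2 change at 3 h was 0.01 at Plekha2, where the value at 24 h was -0.97 in the authors' deposited table. It was 0.36 at Tnrc18 and 0.35 at the chromosome 19 exon, where the values at 24 h in the authors' deposited table were 0.95 and 1.10.

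Another 4 regions, 7.27% of the 55 and 3.96% of the 101, were listed at 3 h and again, with the opposite sign, for 24 h against 3 h, among them those of Adora1, Foxa1 and Ldhd. Over all listed regions 54 were in both lists (9.18% and 4.30%) and 3 of the 54 had equal signs, so opposite signs were the rule in the whole lists too. The log2 changes of 24 h against 3 h in the authors' deposited table were 0.70 at Adora1, -0.70 at Foxa1 and -0.62 at Ldhd (adjusted edgeR p from 0.369 to 0.473). Derived log2 changes of 24 h against untreated were -0.16, 0.06 and 0.14 in the same order, each closer to 0 than the listed value at 3 h. None of the 4 passed the adjusted threshold in either comparison, and the same 3 h libraries enter both comparisons with opposite sign; their part in the pattern was not tested.

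**Figure D5:**
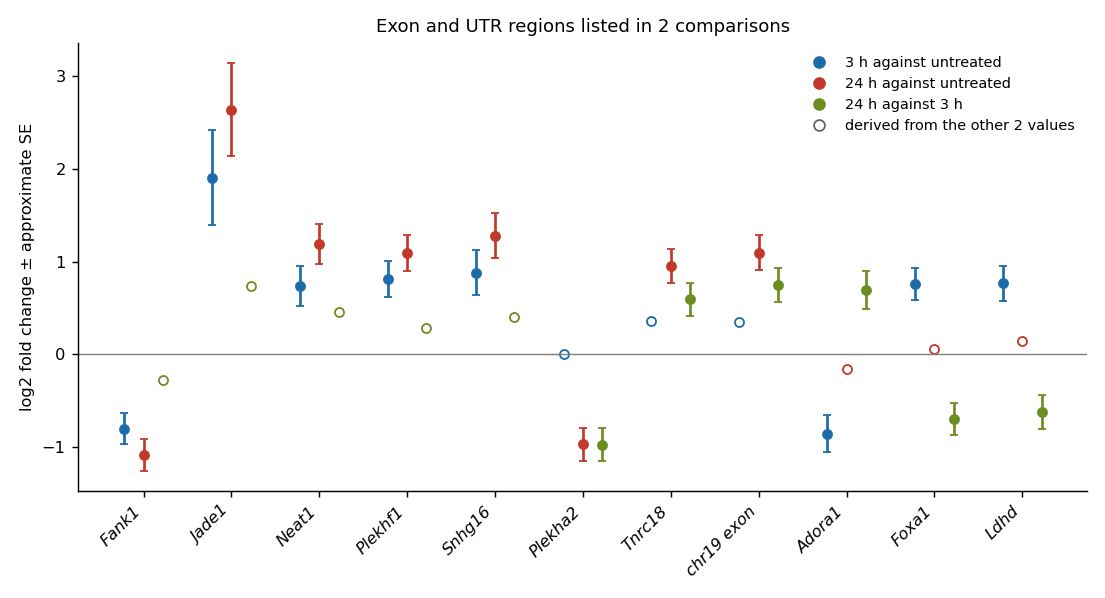
Authors' log2 changes of 11 of the exon and UTR regions present in 2 lists, coloured by comparison, with bars of 1 approximate SE for listed values and open symbols for values derived from the other 2 lists. Fank1, Jade1, Neat1, Plekhf1 and Snhg16 lie on the same side of 0 at 3 h and at 24 h, while Adora1, Foxa1 and Ldhd have derived values at 24 h between -0.16 and 0.14.

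Of the 7 pairs of neighbouring exon or UTR regions within 100 kb of each other in 1 list, 7 had equal signs, as did 219 of 241 such pairs over all listed regions (90.9%). In the extracellular matrix they include Lama5, a laminin chain, with log2 changes of 0.67 and 0.73 at 3 h, and Ogn, a small proteoglycan, with 0.86 and 0.63 for 24 h against 3 h, in the authors' deposited table. Myh9, the nonmuscle myosin heavy chain gene, had -0.71 and -0.59 for 24 h against 3 h in the authors' deposited table. The regions of Adora1, Myh9 and Ogn lie 116, 507 and 513 bp apart, and such close regions may be parts of 1 site rather than separate observations. Car9, a carbonic anhydrase induced by hypoxia, had 2 regions in different lists, -0.78 at 3 h and 0.60 for 24 h against 3 h, as log2 changes in the authors' deposited table.

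Listed regions elsewhere at the same gene, within 5 kb of its RefSeq span, paired with an exon or UTR region in 13 cases at 13 genes. The signs were equal in 12, Car9 being the exception. A single exon or UTR region is counted for both Mark2 and Rcor2. The share of such pairs over all listed regions was not computed, and 90.9% of all neighbouring listed pairs within 100 kb had equal signs, so nothing is read from this count. At Neat1 the other region listed at 24 h has a promoter entry and lies at chr19:5828919-5829159. It does not adjoin the exonic region (chr19:5835554-5835940), and its log2 change was 1.32 in the authors' deposited table. An intronic region of Atf3 had a log2 change of 1.21 at 3 h, per the authors' deposited table.

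Over the gene lists together, 8 of 381 protein-coding genes (2.10%) had an exon or UTR region in any comparison, beside 118 of 21900 protein-coding genes in RefSeq (0.539%). The lists were chosen with earlier results known and gene length was not accounted for, so nothing is read from this difference. Of 30 genes of mTORC1 and insulin signalling 1 did, Rps6kb1, the gene of S6 kinase, whose 3' UTR region was 2.29-fold higher at 24 h than at 3 h in the authors' deposited table (log2 change 1.20, approximate SE 0.36, adjusted edgeR p = 0.473). Only 7.72% of that region is UTR, and its midpoint lies 60.9% of the way along the gene. Of 33 extracellular matrix and adhesion genes Lama5 did at 3 h and Fn1, the fibronectin gene, did for 24 h against 3 h, the latter with a log2 change of 0.74 in the authors' deposited table (adjusted edgeR p = 0.456). Of 45 chromatin and histone modifier genes 1 passed at 24 h, Jade1, at a thinly covered region (mean log2 CPM -0.66). The share of all genes that passed at 24 h was not computed, so nothing is read from this count. Tgif1 was the 1 of 33 genes of TGF-beta, BMP and YAP signalling, and Car9 the 1 of 32 genes of mitochondrial metabolism, glycolysis and hypoxia. Among 30 genes of the integrated and oxidative stress response, 32 of amino acid, ammonia and nucleotide metabolism, 33 of proteolysis, autophagy and atrophy, and 39 myogenic regulators, 0 had an exon or UTR region listed, which at the RefSeq share says nothing about lists of this size.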

How the data were processed

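ATAC-seq was made on 9 libraries, 3 per group, grouped by the labels. The submitters' processing notes name build mm10 and, in no stated order, edgeR, MACS2, MultiQC, bedtools, SAMtools, FastQC, Bowtie2 2.3.4.1, cutadapt 1.15, Picard 2.20.2 and Trim Galore 0.4.5. Not given in the sources used here are the settings, any read shift at transposase cuts, and whether libraries were pooled to call peaks.

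The authors deposited, per comparison and region, a log2 fold change, a mean log2 CPM, a p-value with its Benjamini-Hochberg adjusted p-value, and an F statistic, which is a score with no fixed range. These were used as deposited and nothing was refitted. Annotation lines were collapsed to 1 per region. An approximate standard error is the size of the log2 fold change divided by the square root of F, and a 95% interval uses 21.5 denominator degrees of freedom, the value that F and p give for every region. Shares carry exact Clopper-Pearson intervals that cover counting error only.

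The members and the gene lists were chosen with earlier results of these data known. Named per comparison and direction were the 8 regions of smallest p at a gene with a symbol and the 3 of largest change, the 4 of smallest p in each UTR class, those with adjusted p below 0.05, those in 2 lists, gene list members and genes with several regions; some genes and 1 gene list that this rule covers are not reported here. Gene spans and sequences are from RefSeq (GRCm38.p6). The number of regions tested was recovered from the adjusted and raw p of the top region of 24 h against untreated. Simulated data were used only for a recovery from several top regions, so the form used here was not itself tested. Computations ran in Python 3.11.15 with scipy 1.17.1, pandas 2.3.3 and numpy 2.4.6, and figures in matplotlib 3.10.9.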

Additional observations from a re-analysis of the deposited data

How the results depend on the processing

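No paired analysis was possible because the lists hold no values per library; omission of single replicates was not run for the same reason. The numbers of regions listed moved with the rule and the p limit, by construction. They are given for 3 h, 24 h and 24 h against 3 h in turn: 125, 21 and 233 with promoter regions kept, 34, 7 and 46 with at least 50% of the length in exon or UTR, and 18, 5 and 36 with a UTR entry. With no UTR entry 7 (24 h) and 65 (24 h against 3 h) were left. With the raw p limit of the 24 h list applied to all lists 2 were listed at 3 h and 2 for 24 h against 3 h, and with raw p below 0.001, 16 and 30. The share with a higher value moved to 27.9% for 24 h against 3 h with promoter regions kept, to 50% at 3 h and 0% for 24 h against 3 h at the common p limit, and to 60% for 24 h against 3 h at raw p below 0.001. Over 10 alternatives it ran from 50% to 80.8% at 3 h, from 60% to 85.7% at 24 h and from 0% to 60% for 24 h against 3 h. Of these alternatives 1, with UTR placed before exon, keeps the same regions by construction and could not differ. The count of regions under 1 kb apart once was chosen after seeing the data. Depth per library is unknown, and the thresholds of the lists leave out smaller changes.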

Other observations

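On some chromosomes the exon and UTR regions were listed with 1 sign, a pattern noticed after seeing the values and not tested. At 3 h all 6 on chromosome 8, all 6 on chromosome 11 and all 5 on chromosome 2 had a higher value, where 29 of 36, 25 of 35 and 29 of 46 of all listed regions on those chromosomes did. On chromosome 6 at 3 h 0 of 3 did, beside 19 of 33. For 24 h against 3 h, 7 of 7 on chromosome 13 had a higher value, beside 47 of 63 of all listed regions there (74.6%). On chromosome 8 it was 1 of 8, beside 27 of 75 (36.0%), and on chromosome 12 it was 0 of 4, beside 26 of 50. These comparisons use the same 3 h libraries with opposite sign.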
